A study of Mus musculus with 14 samples.

Results

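The genes described here are the glucocorticoid receptor gene Nr3c1 and 4 of its well-known target genes, Tsc22d3, Fkbp5, Per1 and Sgk1. They were chosen by symbol, with earlier results of these data known, from 10303 genes of a deposited count table. All 5 were listed and passed the filter on low counts that left 7965 genes. The libraries came from natural killer T (NKT) cells, innate-like T cells that recognise lipids on CD1d, sorted from the thymus of young wild-type male mice. Mice received an injection into the peritoneum of dexamethasone, a synthetic glucocorticoid (200 ug for each 10 g of body weight), and their cells were taken 18 h later (5 libraries) or 3 d later (4 libraries). The control group of 5 libraries received the vehicle, which contained 8% ethanol, and was collected at 3 d, which means that no vehicle libraries match the 18 h time point. The labels do not say whether a library is 1 mouse or a pool, nor do they give the clock time of collection, so p-values measure the spread between libraries only.

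The glucocorticoid receptor is a nuclear receptor that waits in the cytoplasm in a complex with HSP90 and co-chaperones. Bound hormone moves it to the nucleus, where it binds a palindromic DNA element and switches genes on, or represses others through contacts with other factors. Some of its targets act back on the hormone's effects. FKBP5 is an HSP90 co-chaperone that lowers the receptor's affinity for hormone, TSC22D3 (also called GILZ) carries part of the anti-inflammatory action in T cells and macrophages, PER1 is a repressor of the circadian clock, and SGK1 is a kinase of the AKT family that acts on ion transport and on FOXO factors. In the thymus, glucocorticoids are best known for killing CD4+CD8+ thymocytes.

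Libraries held 975704 to 2201035 counts (median 1422533), so 1 count was worth 0.468 to 1.1 CPM, the unit used below for counts relative to a library's total after TMM scaling, a correction for composition. Every library was made from the 3′ ends of transcripts, so a count does not tell which start site or isoform was used, and levels are not compared between genes. All 10 NKT cell markers looked for were listed, and their summed level was 2912 to 3504 CPM with vehicle, 1697 to 2292 CPM at 18 h and 2613 to 3297 CPM at 3 d. Zbtb16, the transcription factor that defines NKT cells, stood at 41.4 to 81.1 CPM with vehicle, 18.7 to 76.8 CPM at 18 h and 13.9 to 26.4 CPM at 3 d, where all libraries were below the vehicle range. Cd3e, a chain of the T cell receptor complex, had a median of 659.6 CPM with vehicle and stood at 255 to 340.1 CPM at 18 h and 217 to 347 CPM at 3 d, with every treated library below every vehicle library. Klrb1c, also among these NKT cell markers, stood at 201 to 234 CPM with vehicle and 15.3 to 72.2 CPM at 18 h. At 3 d it stood at 188 to 374 CPM and overlapped the vehicle range, as the summed level did. The share of all tested genes below every vehicle library is not given here, so the lack of overlap is a description only. The part of these levels in the results was not tested. Other cells left traces that differed between libraries. Of 9 markers of CD4+CD8+ thymocytes, 8 were listed, with sums of 64.1 to 160.1 CPM with vehicle, 33.2 to 1274 CPM at 18 h and 27.8 to 43.6 CPM at 3 d. The top of the 18 h range came from replicates 2 and 3, where Cd8b1, a CD8 chain, stood at 1002 and 644 CPM against 9.37 to 27.3 CPM in the other 18 h libraries, while Rag1 stayed at or below 1.66 CPM at 18 h and was at 0 in all 3 d libraries. Of 7 markers of conventional single-positive T cells, 6 were listed, with sums of 194 to 294 CPM with vehicle, 256 to 1229 CPM at 18 h and 90.0 to 178 CPM at 3 d. All 9 macrophage markers were listed, with sums of 444 to 978 CPM with vehicle, 217 to 1014 CPM at 18 h and 682 to 2272 CPM at 3 d. Of 5 markers of thymic epithelium only 1, Krt5, was listed, and it reached at most 4.62 CPM. None of 5 erythroid markers was listed. In these bulk samples fewer cells of a type and less RNA per cell cannot be told apart.

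All 5 genes were higher at 18 h than with vehicle in edgeR's quasi-likelihood test (Benjamini-Hochberg adjusted p below 0.05 over all tested genes), against 17% of tested genes called higher in that comparison. At 3 d the 4 target genes were still higher and the receptor gene was not called, against 12.1% of tested genes called higher. Between 18 h and 3 d, Fkbp5 fell by 1.39 on the log2 scale and no other member was called. In that comparison 6.91% of tested genes were called lower and 4.75% higher. The 4 target genes had no overlap between treated and vehicle libraries at either time, which held for 9.45% of tested genes at 18 h and 9.33% at 3 d in the higher direction. Because the members were chosen with earlier results known, their counts beside these shares are a description only.

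**Figure D1:**
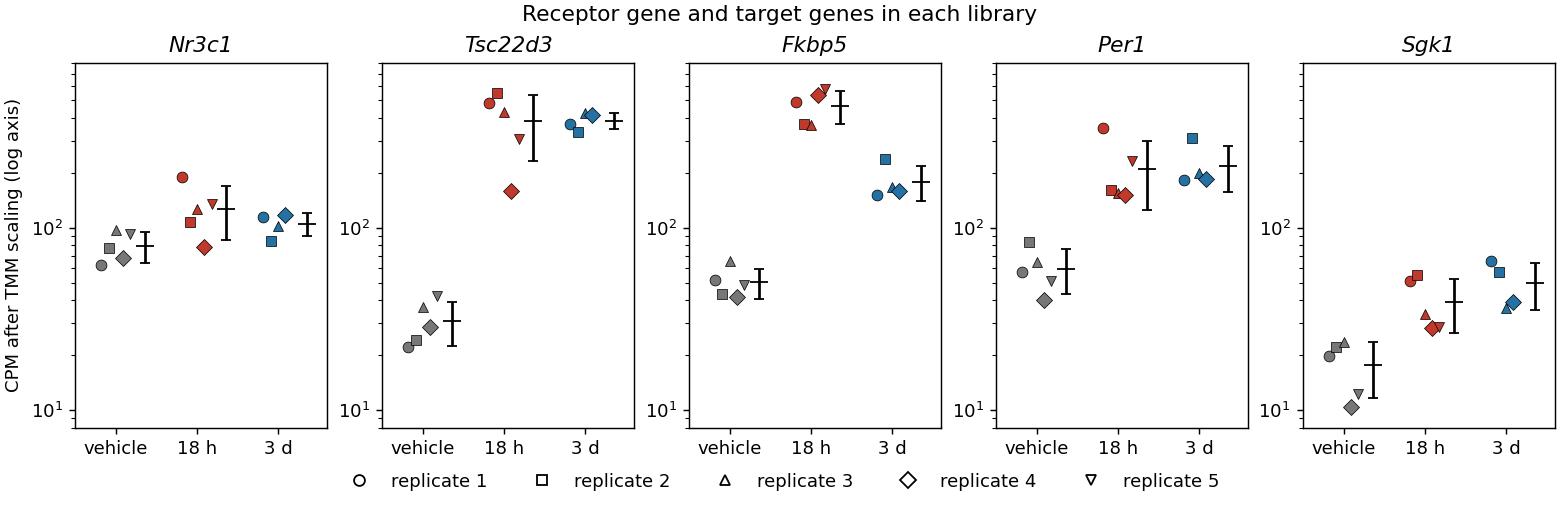
CPM after TMM scaling on a log axis for the receptor gene and the 4 target genes in each library, with marker shapes for replicate numbers and black bars for the group mean ± SD (5 vehicle, 5 18 h and 4 3 d libraries). Tsc22d3, Per1 and Sgk1 were not called different between 18 h and 3 d. Fkbp5 at 3 d lies between its vehicle and 18 h values, and the Nr3c1 groups overlap.

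The receptor gene itself rose 1.6-fold at 18 h (95% interval 1.2 to 2.12). With vehicle, Nr3c1 stood at 62.5, 77.3, 97.5, 68.0 and 91.9 CPM in replicates 1 to 5. At 18 h it stood at 190.2, 107, 125.7, 78.2 and 135 CPM, and at 3 d at 115, 84.8, 102 and 118 CPM. In 4 of 5 libraries at 18 h and 3 of 4 at 3 d the value was above the highest vehicle library, and 18 h replicate 4 lay inside the vehicle range. Mean levels were 79.4 ± 15 CPM with vehicle (SD, n = 5), 127 ± 41.3 CPM at 18 h (n = 5) and 105 ± 15 CPM at 3 d (n = 4). The change at 18 h was 0.67 ± 0.20 on the log2 scale (SE; 95% interval 0.27 to 1.08; edgeR adjusted p = 0.011). At 3 d it was 0.40 ± 0.21 (interval -0.03 to 0.84; adjusted p = 0.16), and 3 d against 18 h it was -0.27 ± 0.21 (interval -0.70 to 0.16; adjusted p = 0.46). The 18 h call was lost when each library's trend with transcript GC content and length was removed, where the change was 0.30 ± 0.18 (adjusted p = 0.21). Without 18 h replicates 2 and 3 it was 0.75 (adjusted p = 0.018).

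Tsc22d3, which encodes a leucine zipper protein that binds and inhibits NF-kB and AP-1, rose at both times, with the largest fitted change of the members at 3 d. It stood at 22.2, 24.3, 36.9, 28.5 and 42.1 CPM with vehicle. At 18 h it stood at 481, 545, 431, 159 and 306 CPM, and at 3 d at 369, 337, 424 and 416 CPM. The lowest treated library, 18 h replicate 4 at 159 CPM, was still well above the highest vehicle library at 42.1 CPM. The change was 3.63 ± 0.28 on the log2 scale at 18 h, a 12.4-fold rise (95% interval 8.18 to 18.8; edgeR adjusted p = 5.2e-08). At 3 d it was 3.64 ± 0.29, a 12.5-fold rise (interval 8.17 to 19.1; adjusted p = 2.1e-07). By p-value this gene ranked 31 among all tested genes at 18 h and 11 at 3 d. The difference between the times was 0.01 ± 0.26 (interval -0.53 to 0.56; adjusted p = 0.98). The 18 h libraries spread far more than the 3 d libraries (SD 153 against 40.9 CPM), and without 18 h replicates 2 and 3 the change was 3.35 at 18 h and 0.30 between the times. At 18 h the order of Tsc22d3 and Fkbp5 was not settled, with 3.63 against 3.21 in all libraries and 3.35 against 3.40 without those 2 libraries.

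Fkbp5, whose protein sits in the same HSP90 complex as the receptor, was the member that came down again. Its vehicle values were 51.9, 43.1, 65.7, 41.7 and 48.2 CPM. At 18 h they were 491, 369.8, 367, 536 and 575 CPM, and at 3 d 151, 237, 167 and 159 CPM. The 3 groups did not overlap, and every 3 d library lay below the lowest 18 h library, as for 6.15% of tested genes, and above the highest vehicle library. At 18 h the change was 3.21 ± 0.19 on the log2 scale, a 9.26-fold rise (95% interval 7.09 to 12.1; edgeR adjusted p = 7.0e-11), which ranked 3 by p-value among all tested genes. At 3 d it was 1.82 ± 0.19, a 3.53-fold rise (interval 2.69 to 4.63; adjusted p = 9.4e-07). The level at 3 d was 0.381 times that at 18 h (interval 0.293 to 0.496; adjusted p = 2.6e-05). The 2 lowest 18 h values of Fkbp5 were in replicates 2 and 3, the libraries high in Cd8b1. Without them the change was 3.40 at 18 h and -1.59 between the times (adjusted p = 8.3e-06). Replicate 4, which was the lowest 18 h library for Tsc22d3, Nr3c1, Per1 and Sgk1, had the second highest Fkbp5 value.

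Per1, a core clock gene that hormone and light both induce, rose and stayed up. It stood at 57.5, 83.9, 65.2, 40.0 and 51.3 CPM with vehicle. At 18 h it stood at 354, 162, 156, 150.4 and 231 CPM, and at 3 d at 182, 309.9, 199 and 184 CPM. All treated libraries were above all vehicle libraries, with replicate 1 standing highest at 18 h and replicate 2 at 3 d. The change was 1.83 ± 0.25 at 18 h on the log2 scale (3.56-fold; edgeR adjusted p = 3.0e-05) and 1.89 ± 0.26 at 3 d (3.70-fold; adjusted p = 5.5e-05). Between the times it was 0.05 ± 0.25 (95% interval -0.47 to 0.58; adjusted p = 0.92).

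Sgk1 had the lowest counts of the members, with 16 to 47 counts a library with vehicle, so its values carry more counting error. It stood at 19.7, 22.1, 23.7, 10.4 and 12.2 CPM with vehicle. At 18 h it stood at 50.7, 55.3, 33.6, 28.1 and 28.7 CPM, and at 3 d at 66.0, 57.5, 36.2 and 39.0 CPM. The groups did not overlap with vehicle, though the gap to the highest vehicle library was narrow, and the 18 h and 3 d ranges overlapped. The change was 1.14 ± 0.27 at 18 h on the log2 scale (2.20-fold; edgeR adjusted p = 0.0027) and 1.5 ± 0.28 at 3 d (2.82-fold; adjusted p = 6.3e-04). Between the times it was 0.36 ± 0.26 (95% interval -0.19 to 0.91; adjusted p = 0.44).

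**Figure D2:**
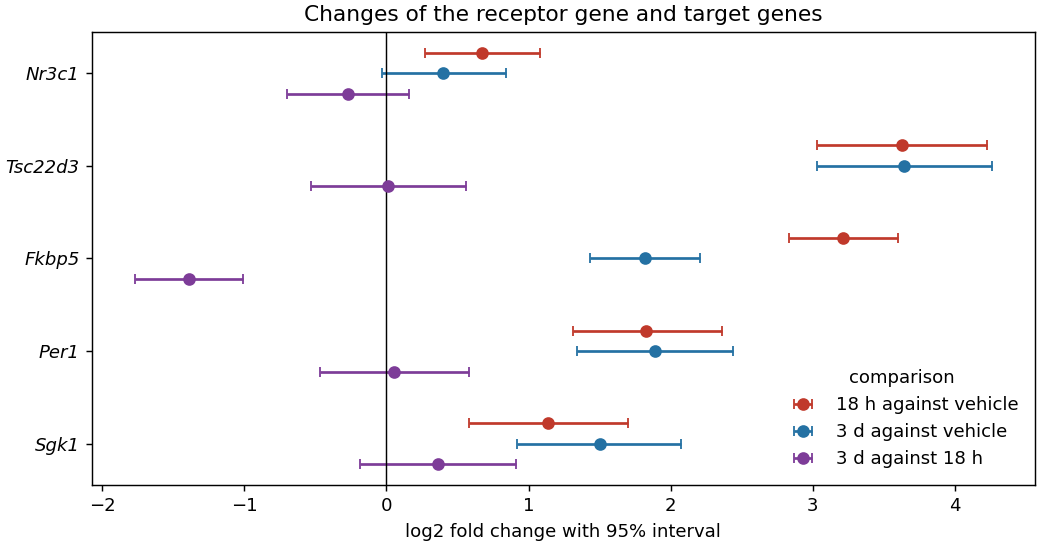
Log2 fold changes with 95% intervals from the edgeR fit for each gene in 3 comparisons. The interval of 3 d against 18 h excludes 0 for Fkbp5 (-1.77 to -1.01) and includes 0 for the other 4 genes.

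The authors' deposited table holds the same comparisons with vehicle or the earlier time in the numerator, so a negative value there means higher after dexamethasone. For Nr3c1 the authors' deposited table gives -0.668 against 18 h (adjusted p = 0.00965) and -0.398 against 3 d (adjusted p = 0.212). For Fkbp5 the authors' deposited table gives -3.21 against 18 h, -1.82 against 3 d and 1.39 for 18 h over 3 d (adjusted p = 1.5e-10). The calls for all 5 members in the 3 comparisons fell on the same side of the threshold there as in the edgeR fit.

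In the annotation of mm10, the build named in the submitters' processing notes, no other gene lies within 1 kb of the 3′ end of any member on either strand. Fkbp5 spans chr17:28399094-28517527 on the minus strand and overlaps 4 other gene models. Tsc22d3 spans chrX:140539528-140600659 (minus strand), Per1 chr11:69095217-69109960 (plus strand) and Sgk1 chr10:21882184-21999903 (plus strand, with 9 coding transcripts). RefSeq promoter windows, of 300 bases around a start site in GRCm38.p6, were found for the 4 target genes, 12 windows in all. For each gene 1 window is shown, the one with the most matches to the motifs below. Windows 1, 2 and 4 of Sgk1 also hold a match and are not shown. Capitals mark ACANNNTGT (the core of the palindromic receptor element), AGAACA (an arm of it) and CACGTG (the E-box bound by the clock factors CLOCK and BMAL1), on either strand, written 5′ to 3′ along the gene's strand.
Sgk1 window, chr10:21993640-21993939, plus strand: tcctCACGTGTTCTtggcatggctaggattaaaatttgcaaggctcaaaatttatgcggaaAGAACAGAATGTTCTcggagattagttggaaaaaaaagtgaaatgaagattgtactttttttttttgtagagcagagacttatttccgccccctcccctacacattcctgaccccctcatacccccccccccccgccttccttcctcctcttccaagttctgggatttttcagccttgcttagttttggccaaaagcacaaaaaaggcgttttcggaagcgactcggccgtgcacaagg
Tsc22d3 window, chrX:140600473-140600772, minus strand: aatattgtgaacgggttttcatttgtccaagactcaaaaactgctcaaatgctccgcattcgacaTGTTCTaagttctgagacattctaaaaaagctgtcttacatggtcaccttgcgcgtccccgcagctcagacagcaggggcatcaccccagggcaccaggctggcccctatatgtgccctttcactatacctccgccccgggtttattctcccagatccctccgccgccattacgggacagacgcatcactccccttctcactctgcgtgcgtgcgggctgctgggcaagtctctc
Fkbp5 window, chr17:28486100-28486399, minus strand: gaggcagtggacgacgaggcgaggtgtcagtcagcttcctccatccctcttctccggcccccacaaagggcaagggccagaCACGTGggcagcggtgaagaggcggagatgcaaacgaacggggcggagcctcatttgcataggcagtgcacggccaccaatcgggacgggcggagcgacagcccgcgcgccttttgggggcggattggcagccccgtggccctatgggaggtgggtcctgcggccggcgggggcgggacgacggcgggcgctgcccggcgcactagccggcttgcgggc
Per1 window, chr11:69098699-69098998, plus strand: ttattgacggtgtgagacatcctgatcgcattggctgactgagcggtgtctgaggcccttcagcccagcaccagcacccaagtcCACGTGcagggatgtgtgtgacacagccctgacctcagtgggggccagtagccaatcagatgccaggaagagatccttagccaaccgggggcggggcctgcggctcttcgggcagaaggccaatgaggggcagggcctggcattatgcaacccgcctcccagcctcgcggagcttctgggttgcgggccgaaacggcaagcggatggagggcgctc

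The Sgk1 window holds AGAACA at -189, then ACAGAATGT at -186 and AGAACA on the other strand at -180. These overlap and make up 1 full palindrome, and a further AGAACA overlaps an E-box at its far end, at -242 and -246. Among 32817 mouse promoters of the same length, ACANNNTGT was found in 6.85%, AGAACA in 19%, CACGTG in 7.15% and the cAMP response element TGACGTCA in 1.79%. Of the 12 member windows, 2 held ACANNNTGT, both of Sgk1, 4 held AGAACA (3 of Sgk1 and 1 of Tsc22d3), 3 held CACGTG (1 each of Fkbp5, Per1 and Sgk1) and 0 held TGACGTCA. A match describes the letters in these windows and is no measurement of binding, and elements outside the windows were not searched.

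Ratios between target genes within a library do not depend on how libraries are scaled, and they showed which targets moved apart. They were tested with exact two-sided permutation tests over libraries, 18 tests in all with Benjamini-Hochberg adjustment, where the smallest possible p is 0.00794 for 5 against 5 libraries and 0.0159 for 5 against 4. The log2 ratio of Fkbp5 to Per1 was -0.15, -0.95, 0.01, 0.06 and -0.09 with vehicle. At 18 h it was 0.47, 1.19, 1.23, 1.83 and 1.32, and at 3 d it was -0.27, -0.38, -0.25 and -0.21. The ratio was higher at 18 h than in either other group with no overlap, and the 3 d values fell inside the vehicle range. The difference was 1.43 for 18 h against vehicle (exact p = 0.00794, adjusted p = 0.0317), -1.48 for 3 d against 18 h (exact p = 0.0159, adjusted p = 0.0317) and -0.05 for 3 d against vehicle (exact p = 0.857).

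Against Sgk1, Fkbp5 showed the same course. The difference in the log2 ratio of Fkbp5 to Sgk1 was 2.05 at 18 h against vehicle (exact permutation adjusted p = 0.0317) and -1.74 at 3 d against 18 h (exact adjusted p = 0.0317). At 3 d against vehicle it was 0.32 (exact adjusted p = 0.44). Tsc22d3 rose more than Per1 and Sgk1 at both times. The log2 ratio of Tsc22d3 to Per1 gained 1.77 at 18 h and 1.79 at 3 d, and that to Sgk1 gained 2.39 and 2.17 (exact adjusted p = 0.0317 for each).

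For the pair of strongest responders, the ratio was called against vehicle at 3 d only, and its difference between the times was not called. The log2 ratio of Tsc22d3 to Fkbp5 was -1.22, -0.81, -0.83, -0.54 and -0.19 with vehicle. At 18 h it was -0.03, 0.56, 0.23, -1.75 and -0.91, and at 3 d it was 1.29, 0.51, 1.34 and 1.38. The 18 h libraries spread across the vehicle range, and the 3 d libraries lay above all vehicle libraries. The difference was 0.34 at 18 h (exact p = 0.468), 1.85 at 3 d (exact p = 0.0159, adjusted p = 0.0317) and 1.51 between the times (exact p = 0.0317, adjusted p = 0.0571). The ratio of Per1 to Sgk1 was not called in any comparison (differences 0.62, 0.37 and -0.25; exact adjusted p = 0.0909, 0.286 and 0.61). Without 18 h replicate 2, Tsc22d3/Fkbp5 between the times (1.74) and Per1/Sgk1 at 18 h (0.83) passed the threshold. The ratio calls that involve 3 d libraries were lost in 8 or 9 of 9 omissions of a single library, where the remaining libraries cannot give an exact p below 0.0286.

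**Figure D3:**
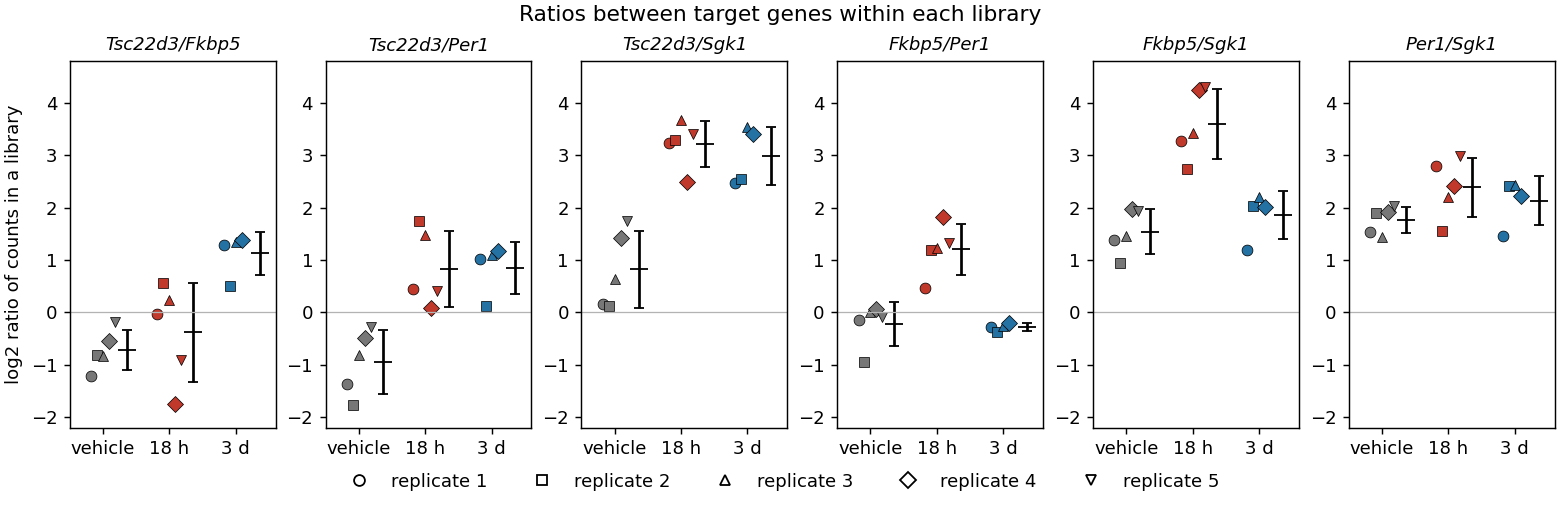
Log2 ratios of the counts of 2 target genes within each library, by group, with black bars for the mean ± SD and shapes for replicate numbers. Fkbp5/Per1 and Fkbp5/Sgk1 are high at 18 h and back near the vehicle values at 3 d, and Tsc22d3/Per1 and Tsc22d3/Sgk1 stay high at 3 d.

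Other genes that glucocorticoids induce in many cells moved in the same direction for the most part. They were chosen with earlier results of these data known, so their counts and median are a description only. Of 30 such genes 23 were tested, with 15 called higher, 2 lower and 6 not called at 18 h, and 12 higher, 1 lower and 10 not called at 3 d. Over all tested genes 17% were called higher and 17.3% lower at 18 h, and 12.1% and 13.8% at 3 d. The median log2 change of the list was 1.11 at both times, against 0.01 and 0.03 over all tested genes. Between 18 h and 3 d, 6 of the list were lower and 1 was higher, against 6.91% and 4.75% of all tested genes. Ddit4, an inhibitor of mTORC1, followed a course like that of Fkbp5, with a change of 2.45 ± 0.16 at 18 h, 1.11 ± 0.16 at 3 d and -1.34 ± 0.16 between the times (edgeR adjusted p = 8.4e-06). Txnip, which binds thioredoxin, changed by 3.04, 2.04 and -1.0 (adjusted p = 0.01 for the last), and Pik3ip1, an inhibitor of PI3K, by 3.07, 2.32 and -0.74 (adjusted p = 0.01, which became 0.055 when 18 h replicates 2 and 3 were left out). The metallothionein gene Mt1 changed by 2.87 at 18 h and -2.09 between the times (adjusted p = 0.0025), and was 0.78 at 3 d (adjusted p = 0.23).

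Others stayed high as Tsc22d3 and Per1 did. Cxcr4, a chemokine receptor that retains cells in tissues, changed by 2.57 ± 0.24 at 18 h and 3.13 ± 0.25 at 3 d (edgeR adjusted p = 1.4e-07 and 5.5e-08). Klf9, a transcription factor induced by steroid and thyroid hormones, changed by 2.89 and 2.46, and Nfkbia, the inhibitor of NF-kB, by 1.84 and 1.32. In 1 of 25 alternatives Klf9 was called lower at 3 d than at 18 h. That was without the 18 h libraries high in Cd8b1 (-0.88, edgeR adjusted p = 0.031). Dusp1, a phosphatase of MAP kinases, was not called at 18 h (0.77, adjusted p = 0.13), except without the 18 h libraries high in Cd8b1 (1.18, adjusted p = 0.0096) and without 18 h replicate 2 (0.97, adjusted p = 0.035). At 3 d it was not called either (0.71, adjusted p = 0.2), except with the vehicle and 3 d libraries fitted alone (0.72, adjusted p = 0.0099) and without 18 h replicate 1 (0.71, adjusted p = 0.037). Zfp36, which destabilises cytokine mRNAs, was called at 18 h only narrowly (0.87 ± 0.30, adjusted p = 0.036) and lost the call in 11 of 25 alternatives (adjusted p up to 0.096). Annexin gene Anxa1, often listed as induced, was lower at 18 h (-1.46 ± 0.50, adjusted p = 0.03) and higher at 3 d (1.17 ± 0.43, adjusted p = 0.048), calls that were lost in 6 of 23 and 8 of 24 alternatives (adjusted p up to 0.088 and 0.41).

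**Figure D4:**
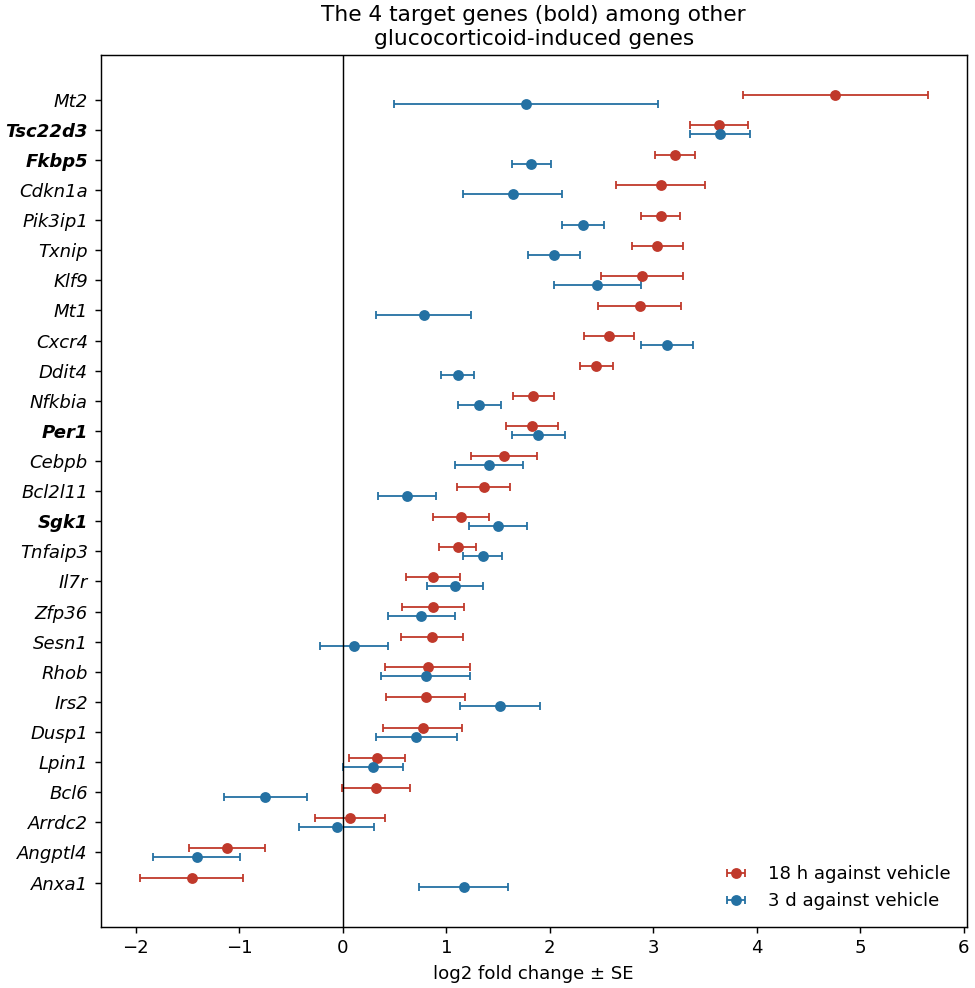
Log2 fold change ± SE at 18 h and at 3 d against vehicle for the 4 target genes (bold) and the 23 tested genes of a list of other glucocorticoid-induced genes, ordered by the 18 h value. Fkbp5, Ddit4, Txnip and Mt1 are lower at 3 d than at 18 h, and Tsc22d3, Per1 and Cxcr4 were not called different between the times. Both comparisons share the vehicle libraries, and the list was chosen with earlier results of these data known.

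Genes known to be repressed by glucocorticoids gave mixed results. Of 20 such genes 13 were tested, with 5 called lower and 0 higher at 18 h, and 1 lower and 2 higher at 3 d, with medians of 0.00 and 0.18 on the log2 scale. At 18 h, 17.3% of all tested genes were called lower and 17% higher, and at 3 d 13.8% and 12.1% were. With 13 genes tested, the counts are a description only. The chemokine gene Xcl1 fell by 4.36 at 18 h and stood at -0.33 at 3 d (edgeR adjusted p = 1.0e-11 and 0.22). Ccl5 fell by 2.69 at 18 h and was higher by 1.86 at 3 d (adjusted p = 2.6e-06 and 1.8e-04). The type 2 cytokine gene Il13 fell by 2.11 at 18 h and by 3.88 at 3 d, each against vehicle (adjusted p = 2.0e-06 and 5.5e-08). Ifng fell by 1.25 at 18 h (adjusted p = 0.011). The NKT marker Klrb1c moved with Xcl1, from 201 to 234 CPM with vehicle to 15.3 to 72.2 CPM at 18 h and 188 to 374 CPM at 3 d, and its part in these values was not tested.

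The receptor's chaperones and co-chaperones changed in both directions. Of 16 genes 15 were tested, with 1 higher and 5 lower at 18 h and 1 higher and 3 lower at 3 d, and the median log2 change was -0.08 and 0.00. Over all tested genes 17% were called higher and 17.3% lower at 18 h, and 12.1% and 13.8% at 3 d. The 18 h counts moved to 3 lower without any 1 of vehicle replicates 1, 2 and 5 or 18 h replicates 1, 2 and 5, and to 3 higher without vehicle replicate 3. Fkbp4, whose protein competes with FKBP5 for HSP90 and favours receptor movement to the nucleus, went the other way from Fkbp5. It averaged 215 ± 40.6 CPM with vehicle (SD, n = 5), 145 ± 23.3 CPM at 18 h (n = 5) and 143 ± 14.5 CPM at 3 d (n = 4), a change of -0.57 ± 0.16 at 18 h and -0.59 ± 0.17 at 3 d (edgeR adjusted p = 0.0076 and 0.013). Stip1, which links HSP70 to HSP90, fell by 0.64 at 18 h (adjusted p = 0.0035) and stood at -0.07 at 3 d. Ppid, also of this list, was at -1.04 ± 0.23 at 3 d (edgeR adjusted p = 0.0021), and its lower call at 18 h was lost in 8 of 25 alternatives. Dnajb1, an HSP40 co-chaperone, rose by 0.82 and 1.04 (adjusted p = 0.0017 and 5.9e-04). Of the HSP90 genes themselves, Hsp90ab1 was at -0.02 and 0.19, and Hsp90aa1 was at 1.24 ± 0.47 at 18 h (adjusted p = 0.053). Hsp90aa1 passed the threshold in 11 of 25 alternatives, with the largest value without vehicle replicate 3 (1.81, adjusted p = 0.0051).

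Most of the other FKBP genes tested were lower after dexamethasone. Of 13 other FKBP genes 6 were tested, and 4 were lower at both times, Fkbp1a, Fkbp2, Fkbp3 and Fkbp4, with 1 higher at 18 h and 0 higher at 3 d. Of all tested genes, 17.3% were called lower at 18 h and 13.8% at 3 d. Fkbp1a, whose protein binds the drug FK506, fell by 1.02 ± 0.19 at 18 h and 1.69 ± 0.21 at 3 d (edgeR adjusted p = 2.7e-04 and 6.6e-06). Fkbp3 fell by 1.08 and 0.74. In the TSC22 family of leucine zipper genes, Tsc22d1 was at 0.27 and 0.36 (adjusted p = 0.47 and 0.37) and Tsc22d4 at -0.31 at 18 h (adjusted p = 0.089) and -0.66 at 3 d (adjusted p = 0.0026).

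Among 27 coactivators and corepressors of the receptor, 23 were tested, with 7 higher and 2 lower at 18 h and 4 higher and 1 lower at 3 d. Of all tested genes, 17% were called higher at 18 h and 12.1% at 3 d. The count of 7 fell to 2 without the 18 h libraries high in Cd8b1, to 3 with the GC and length trend removed and to 4 with a filter at 20 CPM. With single libraries left out the 3 d count of 4 ranged from 0 to 4, with 0 without 3 d replicate 3, 1 without vehicle replicate 1, 2, 4 or 5 and 2 without 3 d replicate 1 or 4. Ncoa2, a p160 coactivator, was at 1.38 ± 0.39 at 18 h (edgeR adjusted p = 0.01), and Prmt1, an arginine methyltransferase, fell by 0.83 ± 0.18 (adjusted p = 0.0011). The corepressor Ncor1 was called at 18 h (0.63, adjusted p = 0.011) but not with that trend removed (adjusted p = 0.094). Of 9 importins 5 were tested and only Kpna4 was called (0.59 at 18 h, adjusted p = 0.017), a call lost with the trend removed. Of 11 genes of steroid handling and related receptors 4 were tested. Abcb1b, an efflux pump that exports dexamethasone, was at 1.48 at 18 h (adjusted p = 0.0017) and 0.13 at 3 d (adjusted p = 0.84), and its mean was 6.55 CPM with vehicle, 18.2 CPM at 18 h and 7.19 CPM at 3 d. Hsd11b1, which regenerates active hormone, was called lower at 18 h (-1.05, adjusted p = 0.046), a call lost in 15 of 25 alternatives (adjusted p up to 0.1).

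Other clock genes changed in both directions. Of 20 genes 12 were tested, with 6 higher and 2 lower at 18 h and 3 higher and 1 lower at 3 d (of all tested genes 17% were higher and 17.3% lower at 18 h, and 12.1% and 13.8% at 3 d), and Per2, Per3 and Clock were not analysed here. Ciart, a repressor of CLOCK and BMAL1, rose by 1.48 and 1.32 (edgeR adjusted p = 4.3e-05 and 4.1e-04), and Nfil3 rose by 2.48 at 18 h (adjusted p = 5.3e-04). Bhlhe40, another repressor, fell by 1.48 at 18 h (adjusted p = 8.5e-04) and was at 0.61 at 3 d (adjusted p = 0.12). Nr1d1 fell by 1.95 at 18 h (adjusted p = 0.0036) and Arntl, which encodes BMAL1, rose by 1.10 (adjusted p = 0.014). Dbp, an output gene of the clock, was at 0.26 and 0.10 (adjusted p = 0.42 and 0.81). The groups taken 18 h and 3 d after injection may have been taken at different clock times, which the labels do not give, so time of day and hours after dexamethasone cannot be told apart at 18 h.

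Around Sgk1, 9 of 13 related kinases and partners were tested, with 2 higher and 1 lower at 18 h and 2 higher and 0 lower at 3 d, and Sgk2, Sgk3 and Nedd4l were not analysed here. Higher calls were made for 17% of all tested genes at 18 h and 12.1% at 3 d. The 18 h count of 2 rose to 4 without vehicle replicate 3 and to 5 without 18 h replicate 4. The 3 d count of 2 fell to 0 without 3 d replicate 1 and to 1 without 3 d replicate 2 or 3 or vehicle replicate 4 or 5. Rictor, a subunit of the mTORC2 complex that activates SGK1, rose by 1.28 ± 0.33 at 18 h (edgeR adjusted p = 0.005). Foxo1, a transcription factor that SGK1 and AKT keep out of the nucleus, rose by 0.77 ± 0.18 at 18 h (adjusted p = 0.0023) and stood at -0.09 at 3 d (adjusted p = 0.77). The drop of Foxo1 between the times was -0.86 (adjusted p = 0.0052). Leaving out the 18 h libraries high in Cd8b1 made it -0.60 and ended the call (adjusted p = 0.064).

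**Figure D5:**
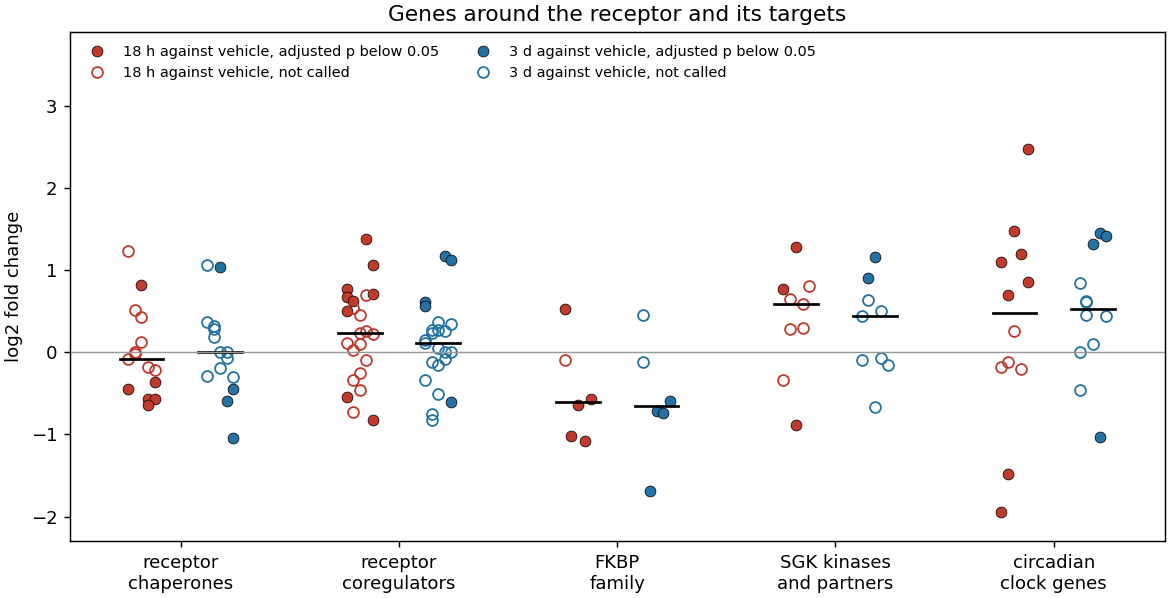
Log2 fold changes at 18 h and 3 d against vehicle for the tested genes of 5 lists around the receptor and its targets, with filled points for adjusted p below 0.05, open points for genes not called and black lines for medians. The FKBP family lies mostly below 0 (medians -0.60 and -0.65) and the other lists spread to both sides of it.

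Among 5095 genes with at least 20 CPM on average, the genes whose course over the 14 libraries was most like that of a member were found by the root mean square difference of log2 CPM after subtracting the vehicle mean. This ranks likeness over shared libraries and is a description. Fkbp5 was most like Txnip (0.46), Pik3ip1 (0.49), Gstp1 (0.49), Oas2 (0.53) and Sytl3 (0.54), where the median gene was at 2.19. Tsc22d3 was most like Cxcr4 (0.81), Pik3ip1 (0.83), Ctla4 (0.86), Ly6c1 (0.88) and Sytl3 (0.89), with a median of 2.92. Of these, Pik3ip1, Ctla4, Ly6c1 and Sytl3 were called lower at 3 d than at 18 h, and Tsc22d3 was not. Ctla4 and Ly6c1 averaged 1.71 and 2.27 CPM with vehicle, so they reached 20 CPM on average only through treated libraries. The median differed between members, so the root mean square differences are not compared from member to member. Per1 was most like Etv3 (0.31), Cish (0.37), Acp5 (0.37), Nfkbia (0.40) and Rrad (0.42), with a median of 1.55. Sgk1 was most like Abcg1 (0.31), Rpl13 (0.33), Micall1 (0.35), Hnrnpa1 (0.36) and Lypla1 (0.36), with a median of 1.16. Nr3c1 was most like Mif4gd (0.23), Crtc2 (0.24), Arrb2 (0.24), Whsc1l1 (0.25) and Gimap1 (0.25), where the median gene was at 0.68.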

How the data were processed

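Bulk MARS-seq, which counts the 3′ ends of polyadenylated transcripts, was done on 14 libraries of sorted thymic NKT cells, per the labels' protocols. The submitters' processing notes list mm10 as the build and, without roles or order, STAR 2.5.2b, cutadapt, HTSeq, bcl2fastq and DESeq2. Whether counting used strand or molecular identifiers is not stated in those sources. The authors deposited 1 table with raw counts per gene (whole numbers, not normalized), log2 fold changes and adjusted p-values. The deposited log2 fold changes and p-values were only copied, and 28 further per-sample columns were not used.

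Of 10320 listed names, 17 were symbols turned into dates and were left out (0.102% to 0.147% of counts). The highest count of any listed gene was at least 6. Raw counts were filtered with filterByExpr, scaled by TMM and fitted with edgeR 4.0.16 (R 4.3.3; robust quasi-likelihood test, all 14 libraries in 1 fit, no covariates), with Benjamini-Hochberg adjustment over 7965 genes and calls at adjusted p below 0.05. The procedure was tested on simulated data. Alternatives used DESeq2 1.42.0, limma 3.58.1 (voom with quality weights), RLE scaling, other filters, left-out libraries, a block by replicate number and removal of each library's trend with GC content and length (available for 99.5% of tested genes). Ratios used a pseudocount of 0.5 counts.

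The result of 1 further list of cell type markers is not reported here. The members and gene lists were chosen with earlier results of these data known. Named genes were the members, a fixed set of pathway genes, the up to 3 genes of each list with the smallest adjusted p in each comparison, and the 5 genes most like each member. No 2 replicates matched within sampling noise (chi-square over degrees of freedom from 3.28 to 14.6), so none were merged. Same-numbered libraries of different groups were not alike (correlation of deviations -0.211 to 0.153), so the numbers were not taken as pairs, and for the 3 d group the number in the title and in the description differ. Counting intervals would cover counting error only, since reads may not be independent molecules.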

Additional observations from a re-analysis of the deposited data

Results flagged for a closer look

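The level of Fkbp5 after dexamethasone differed between the times, with a change of -1.39 on the log2 scale for 3 d against 18 h (edgeR adjusted p = 2.6e-05), lower in 4 of 4 libraries. No vehicle libraries match the 18 h time point, so time of collection and hours after dexamethasone cannot be told apart. The same edgeR test of 3 d against 18 h separated the times for other genes of the gene lists and of the genes most like a member. Genes most like a member were picked over these same libraries, and list genes partly by their adjusted p, so these calls are a description. Of all tested genes, 6.91% were called lower and 4.75% higher in this comparison. Ddit4 (-1.34), Txnip (-1.0), Pik3ip1 (-0.74), Mt1 (-2.09), Abcb1b (-1.36), Foxo1 (-0.86), Fkbp1a (-0.67), Il13 (-1.77), Ctla4 (-1.86), Ly6c1 (-1.16), Oas2 (-2.17) and Sytl3 (-0.89) were lower at 3 d. Xcl1 (4.03), Ccl5 (4.54), Ifng (2.06), Anxa1 (2.63), Bhlhe40 (2.09), Nedd4 (0.77), Tef (0.73), Stip1 (0.56) and Cish (0.53) were higher at 3 d. Of 25 alternatives the call was lost for Tef in 19 (adjusted p up to 0.16), Sytl3 in 18 (0.14), Cish in 11 (0.12), Stip1 in 9 (0.12), Fkbp1a in 9 (0.13), Nedd4 in 5 (0.12), Foxo1 in 1 (0.064) and Pik3ip1 in 1 (0.055). For Abcb1b it was lost in 3 of 24 (adjusted p up to 0.062).

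Single libraries stood far from the rest of their group in 4 of 33 combinations of a member or ratio and a group, where chance flags about 1 in 20. The ratios were made from the same genes as the members, so the combinations are not independent. An excess over that rate was not tested. Per1 at 3 d was 309.9 CPM in replicate 2, against 182 to 199 CPM in the other libraries. In the same library the log2 ratio of Tsc22d3 to Fkbp5 was 0.51, against 1.29 to 1.38 in the others, and that of Tsc22d3 to Per1 was 0.12. In vehicle replicate 2 the log2 ratio of Fkbp5 to Per1 was -0.95, against -0.15 to 0.06 in the others. The causes were not tested.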

How the results depend on the processing

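Over 25 alternatives each, the 4 target genes kept their direction and their calls against vehicle, and Fkbp5 between the times ranged from -1.59 to -1.31. Nr3c1 at 18 h ranged from 0.28 to 0.82, and its call ended when the trend with GC content and length was taken out, with and without the replicate block (0.28 and 0.30; the cause was not tested). Nr3c1 at 3 d was called with limma voom and quality weights (0.53, adjusted p = 0.017). With the replicate block alone, by the number in the title, Fkbp5 was 3.20, 1.85 and -1.35 in the 3 comparisons, Nr3c1 was 0.65 at 18 h, and no member's call changed.

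Genes called higher at 3 d numbered 964, and 1577 with voom. Genes higher at 3 d against 18 h numbered 378, and 229 with only those groups fitted, 233 without both Cd8b1-high libraries and 242 to 428 with single libraries left out, the lowest without 18 h replicate 3. With single libraries left out, ratio differences at 3 d against vehicle were 1.72 to 2.05 for Tsc22d3/Fkbp5, 1.59 to 2.04 for Tsc22d3/Per1 and 1.98 to 2.40 for Tsc22d3/Sgk1. At 3 d against 18 h they were 1.17 to 1.74 for Tsc22d3/Fkbp5, -1.67 to -1.33 for Fkbp5/Per1 and -1.95 to -1.51 for Fkbp5/Sgk1, and Per1/Sgk1 at 18 h was 0.47 to 0.83. The 3 d calls were lost in 8 or 9 of 9 omissions, where fewer libraries cannot give an exact p below 0.0286, and Tsc22d3/Fkbp5 between the times and Per1/Sgk1 at 18 h gained a call without 18 h replicate 2. In the 150 bases nearest the start, ACANNNTGT was in 3%, AGAACA in 9.63%, CACGTG in 4.35% and TGACGTCA in 1.4% of promoters. At these depths Sgk1 with vehicle rests on 16 to 47 counts a library.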
